A study of Canis lupus familiaris with 8 samples.

Results

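The miR-10, miR-99, miR-100 and miR-125 families were examined in the serum of Doberman Pinschers. On the array analysed here, 12 of 1224 miRNA names belonged to these families by their name alone: a name had to be miR-10, miR-10a, miR-10b, miR-99a, miR-99b, miR-100, miR-125a or miR-125b, with an optional arm suffix, and names marked with a star were left out. Of the 12 names, 6 were listed as canine (cfa-miR-10, cfa-miR-10b, cfa-miR-99a, cfa-miR-99b, cfa-miR-125a and cfa-miR-125b) and 6 as murine (mmu-miR-10a, mmu-miR-10b, mmu-miR-99a, mmu-miR-100, mmu-miR-125a-5p and mmu-miR-125a-3p). The canine and murine listings were kept apart, since each had its own probes, and cfa-miR-100 was not analysed here.

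Serum came from adult Doberman Pinschers that lived with their owners, 4 with dilated cardiomyopathy in its occult stage (the DCM group, arrays DoCM5 to DoCM8) and 4 healthy (the control group, arrays Con1 to Con4). The labels give ages of 7 to 11 years, while the study's methods describe a DCM dog that was younger. Dilated cardiomyopathy is a disease of the heart muscle in which the ventricle widens and contracts poorly, and it is inherited and frequent in this breed. The dogs of the DCM group received pimobendan, an ACE inhibitor and sotalol or amiodarone according to the study's methods, so that disease and treatment cannot be told apart. Each array held serum RNA of 1 dog, and every difference between groups is given relative to the control group.

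MicroRNAs of these families are among the oldest known in animals. The miR-10 genes lie inside the HOX clusters, which pattern the body axis, and the miR-99 and miR-100 genes share primary transcripts with let-7 and miR-125 genes. miR-125 is the vertebrate counterpart of lin-4 of the nematode, miR-125b is known from blood stem cells and their leukaemias, and miR-99 and miR-100 are known to repress mTOR and the IGF1 receptor. Members are found in many tissues, among them endothelium, smooth muscle, fibroblasts and parts of the blood lineage, and none of them is a marker of the heart. In serum, a change in the number of cells that release a miRNA and a change in the amount released per cell cannot be told apart.

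In the RefSeq gene order of the dog (UU_Cfam_GSD_1.0), MIR125A was followed by MIRLET7E and MIR99B. MIR99A-2, MIRLET7A-2 and MIR125B-1 lay in this order in a further cluster, and MIR99A-1, MIRLET7C and MIR125B-2 in the last. MIR10A, the gene of the name cfa-miR-10, was the neighbour of MIR196A-1. Because mature miR-99a and miR-125b can each come from 2 genes, the array could not tell which cluster a signal came from. Family members also differ from each other by few bases, and how much of a value came from a near-identical relative was not tested.

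Between 10817 and 14000 features per array were well above background (the detection flag of the scanner software) and 0 were saturated. The array labelled DoCM5 stood apart: its median log2 signal was the highest of the 8 arrays, 5.09 against 3.68 to 4.85 on the others, and its median correlation with the other arrays across miRNAs was 0.924 against 0.957 to 0.968. Differences of the detected family members are therefore also given without DoCM5. The study left out of its comparison an array that it calls DoCM8, but the array labelled DoCM8 here had the highest of these median correlations. The study describes the signals of its left-out sample as intensified, and here the median signal was highest on DoCM5. It lists cfa-let-7c as lower in DCM, and here that log2 difference was -0.55 without DoCM5 and 0.00479 without DoCM8. Whether both numberings match is unknown. Differences of the detected family members without DoCM8 are given as well. Row 1 of the slide held the DCM arrays and row 2 the control arrays, and the slide row cannot be told apart from the group.

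A name counted as detected when any of its features exceeded the background clearly in 2 or more arrays of either group, and this held for 9 of the 12 names, against 438 of 1224 names on the whole array. Every name had 40 features per array. cfa-miR-10b, mmu-miR-10b and cfa-miR-99a were well above background in all 320 measurements (40 features on 8 arrays). mmu-miR-125a-3p reached 319 and mmu-miR-10a 318 of 320. These 5 names were detected in every dog with almost all of their features.

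The other 4 detected names lost part of their features to the background. cfa-miR-10 was well above background in 230 of 320 measurements, cfa-miR-125b in 222, mmu-miR-99a in 186 and cfa-miR-125a in 160. This loss followed the probe. Each of the 8 detected names of the 5p strand, the main mature strand of these families, had 2 probes of 20 features each, and the brighter probe was well above background with all 20 features on all 8 arrays. The dimmer probe carried up to 36.9% (mmu-miR-10b) of the mean signal of the brighter. That of cfa-miR-125a was not above background on any array and had 0 of 20 features kept, and that of mmu-miR-99a had 1, so that both values rest in practice on 1 probe.

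For cfa-miR-125b the dimmer probe separated the dogs. All 20 of its features were well above background on DoCM5, 19 on Con1 and 18 on Con2, while the other 5 arrays had between 0 and 2. The brighter probe gave mean signals of 176, 84.8 and 62.2 on DoCM5, Con1 and Con2, and between 17.5 and 36.5 on the other arrays, before normalization. The same 3 arrays were therefore highest on both probes of this miRNA.

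**Figure D1:**
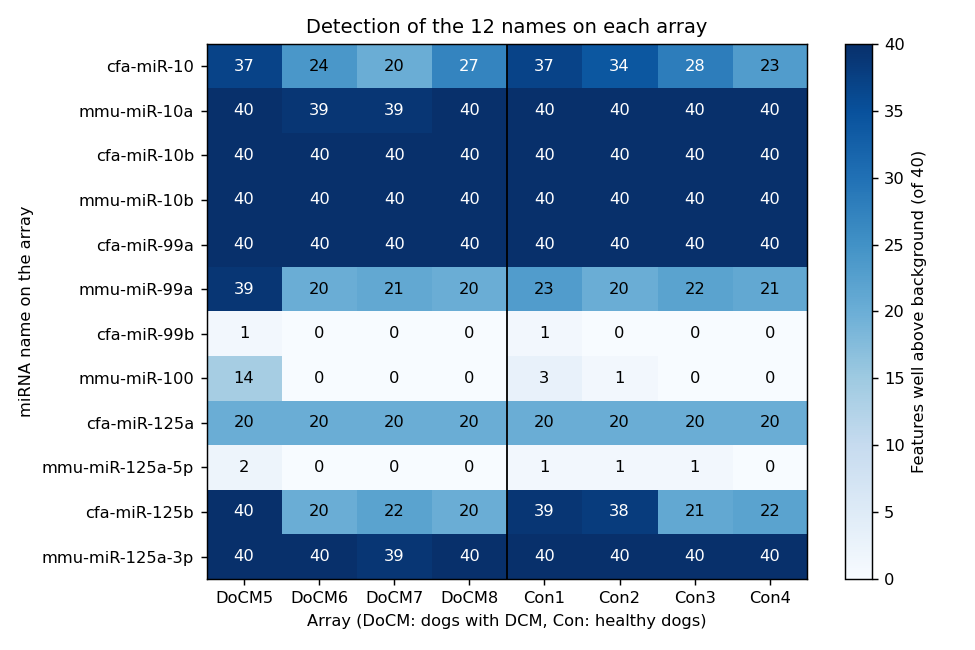
Number of features well above background, of 40, for each of the 12 names (rows) on each array (columns). cfa-miR-99b, mmu-miR-100 and mmu-miR-125a-5p stay at or near 0 on almost all arrays, with 14 features of mmu-miR-100 on DoCM5 as the exception, whereas 9 names reach at least 20 features on every array.

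As the map of detection by array shows, 3 names were not detected. cfa-miR-99b was well above background in 2 of 320 measurements, 1 on DoCM5 and 1 on Con1, and mmu-miR-125a-5p in 5. For mmu-miR-100 the count was 18, of which 14 fell on DoCM5, 3 on Con1 and 1 on Con2, so that the condition of 2 arrays within a group was not met by any feature. On Con1 a feature of mmu-miR-100 had a signal of 1565 while the next brightest had 13.4. This feature was flagged as an outlier by the scanner software, and the mean signal of the remaining features was 2.03. No level and no fold change are given for these 3 names. The murine listing miR-125a-5p was not detected although the canine listing miR-125a was, and the 2 names have different probes.

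No detected name of these families passed an unadjusted limma p under 0.05 with a fold change over 1.5, the limits of the study's methods, although cfa-miR-99a did so with the median over features and cfa-miR-125a without Con3. Over all 438 tested names 18 passed, which is 4.11% (1.83% higher and 2.28% lower in DCM), so that 0 of 9 lies near the background. After Benjamini-Hochberg adjustment over all 438 names 0 passed, which is 0%, and at an unadjusted limma p under 0.05 alone 0 of the 9 names and 4.34% of all names passed. In none of the 9 did the values of the 2 groups separate without overlap, against 2.74% of all names. The mean was lower in DCM for 9 of 9 names, against 50% of all names, except that cfa-miR-10 turned to a log2 difference of 0.20 with the median over features and mmu-miR-99a to 0.03 with scaling to the 75th percentile over all names. The median log2 difference was -0.37 over the 9 names and -0.000209 over all. Over the 9 names it shrank to -0.17 without DoCM6, to -0.24 without Con2 and to -0.22 without a filter on dim features. It was -0.13 with quantile normalization after normexp correction. That setting adds an offset of 50 before the log2, which narrows differences by construction. With scaling to the 75th percentile over all names it was -0.08, and 37.9% of all names were lower in DCM. It grew to -0.48 without Con3, -0.49 without Con4, -0.42 without DoCM8 and -0.50 with the median over features. For most 5p names the median over features lies by construction at or near the gap between a bright and a dim probe. The 9 names hold 3 miRNAs in 2 listings each, and the 8 names of the 5p strand moved together from dog to dog, so that their common direction is not 9 separate results.

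**Figure D2:**
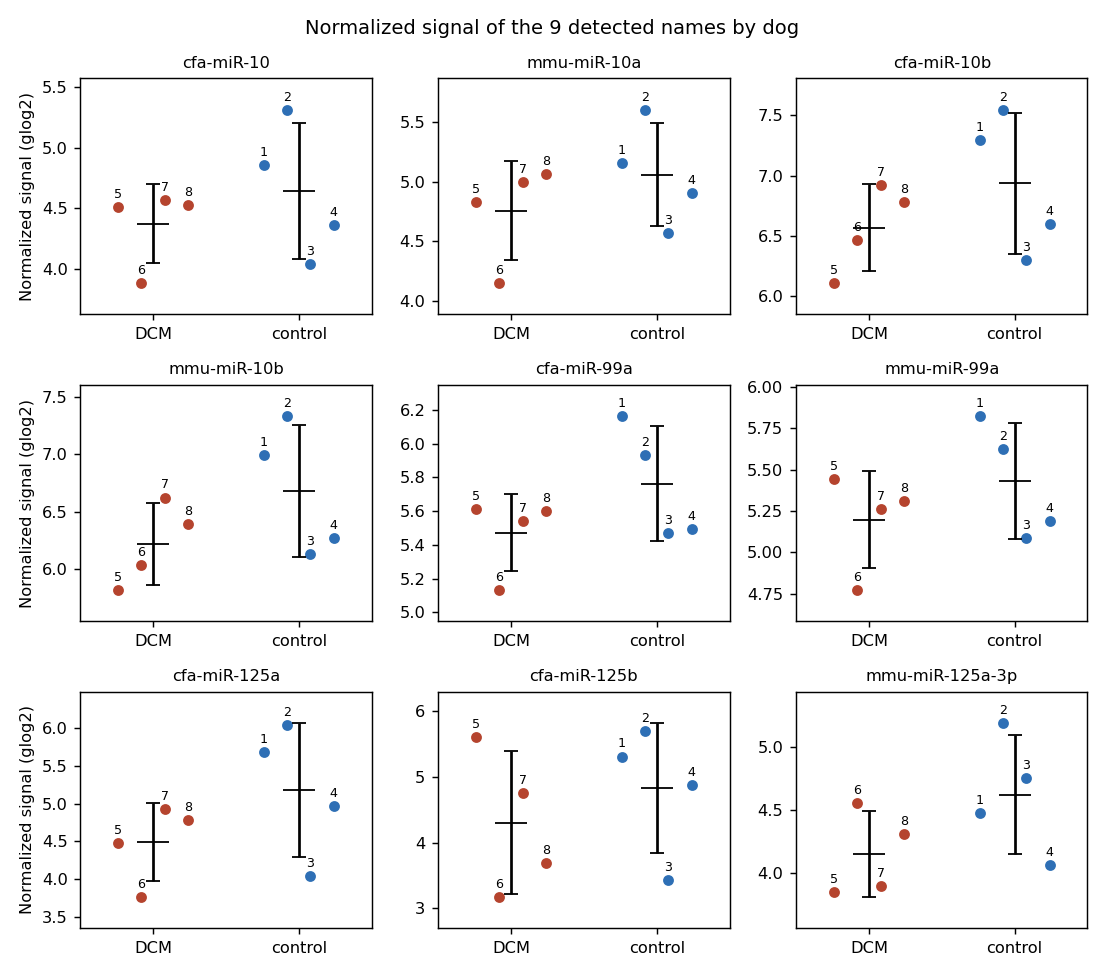
Normalized signal (glog2, arbitrary zero, each panel with its own scale) of the 9 detected names, with 4 DCM arrays in red and 4 control arrays in blue, numbered as in their labels; the long horizontal line is the mean and the vertical bar the SD. The groups overlap in every panel, and Con1 and Con2 lie above Con3 and Con4 in every panel but that of mmu-miR-125a-3p.

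Values by dog are given as glog2, a log2 scale that flattens near the background. The plot of the normalized signal by dog shows all of them. miR-10a is the member of the HOXB cluster. Its canine listing, cfa-miR-10, had 4.51, 3.88, 4.57 and 4.53 on DoCM5 to DoCM8 and 4.86, 5.31, 4.04 and 4.36 on Con1 to Con4. DoCM6 and Con3 were lowest and Con2 was highest, and the groups overlapped. DCM dogs averaged 4.37 ± 0.33 and healthy dogs 4.64 ± 0.56 (SD, n = 4 each), a log2 difference of -0.27 (standard error 0.33, 95% interval -0.99 to 0.45, limma p = 0.433, adjusted p = 0.993; exact permutation p = 0.457). It was -0.29 without DoCM5 and -0.34 without DoCM8. Other arrays moved it further, to -0.05 without Con2, -0.10 without DoCM6 and -0.48 without Con3. The murine listing mmu-miR-10a gave the same order of lowest and highest dogs, with 4.83, 4.15, 5.00 and 5.06 in DCM and 5.16, 5.61, 4.57 and 4.91 in controls. Its log2 difference was -0.30 (standard error 0.32, 95% interval -1.003 to 0.398, limma p = 0.366, adjusted p = 0.979; exact permutation p = 0.371). It was -0.30 without DoCM5, -0.42 without DoCM8, -0.09 without DoCM6, -0.13 without Con2 and -0.47 without Con3. With the median over features it was -0.71, and with scaling to the 75th percentile over all names -0.05.

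miR-10b, its relative from the HOXD cluster, is known for roles in blood vessel growth and in the spread of tumour cells. cfa-miR-10b had 6.11, 6.47, 6.92 and 6.78 in DCM dogs and 7.30, 7.55, 6.30 and 6.60 in healthy dogs. DoCM5 was lowest and Con1 and Con2 were above every DCM array, whereas Con3 was below 3 of them. The log2 difference was -0.37 (standard error 0.34, 95% interval -1.11 to 0.38, limma p = 0.303, adjusted p = 0.956; exact permutation p = 0.314), and it was -0.21 without DoCM5, -0.46 without DoCM8, -0.17 without Con2 and -0.58 without Con3. For mmu-miR-10b the values were 5.82, 6.04, 6.62 and 6.40 in DCM and 6.99, 7.33, 6.13 and 6.27 in controls. Con1, Con2 and DoCM5 held the same places as in the canine listing. The log2 difference was -0.46 (standard error 0.34, 95% interval -1.20 to 0.28, limma p = 0.199, adjusted p = 0.956; exact permutation p = 0.257). It was -0.32 without DoCM5, -0.54 without DoCM8 and -0.25 without Con2.

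miR-99a, the repressor of mTOR, varied least among the dogs of a group of the canine listings. cfa-miR-99a had 5.61, 5.13, 5.54 and 5.60 in DCM and 6.16, 5.93, 5.47 and 5.49 in controls, with an SD of 0.23 in DCM and 0.34 in controls. Con1 and Con2 were above all DCM arrays, Con3 and Con4 were within their range, and DoCM6 was the lowest of all. The log2 difference was -0.29 (standard error 0.28, 95% interval -0.90 to 0.32, limma p = 0.318, adjusted p = 0.956; exact permutation p = 0.286). It was -0.32 without DoCM5, -0.35 without DoCM8, -0.16 without Con1 and -0.17 without DoCM6. With the median over features it was -0.77 and passed the limits with a limma p of 0.0426, but its adjusted p in limma was 0.984, and with scaling to the 75th percentile over all names it was -0.02. The murine listing mmu-miR-99a ranked the 8 dogs in exactly the same order, from 4.77 on DoCM6 to 5.82 on Con1, with a log2 difference of -0.23 (standard error 0.29, 95% interval -0.86 to 0.40, limma p = 0.436, adjusted p = 0.993; exact permutation p = 0.343). That difference was -0.30 without DoCM5, -0.29 without DoCM8, -0.08 without DoCM6, -0.10 without Con1 and -0.35 without Con3.

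miR-125a, like miR-125b, is known to act in blood stem cells. cfa-miR-125a had 4.48, 3.77, 4.93 and 4.78 in DCM and 5.68, 6.04, 4.04 and 4.96 in controls. All DCM arrays were below Con1, Con2 and Con4, and Con3 lay between DoCM6 and DoCM5. DCM dogs averaged 4.49 ± 0.52 and healthy dogs 5.18 ± 0.88 (SD, n = 4 each), a log2 difference of -0.69, 1.62-fold lower in DCM, with a standard error of 0.43 and a 95% interval from -1.64 to 0.26 (limma p = 0.137, adjusted p = 0.956; exact permutation p = 0.200). Without DoCM5 the log2 difference was -0.65 and without DoCM8 -0.80, and neither passed the limits. Other arrays moved it more. It was -0.41 without Con2 and -0.44 without DoCM6, both under a fold change of 1.5. With scaling to the 75th percentile over all names it was -0.43, and with quantile normalization after normexp correction -0.27, both also under that fold change. Without Con3 it was -1.08 (standard error 0.40), and this passed the limits with a limma p of 0.0187 but had an adjusted p of 0.891 over all names in limma.

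miR-125b varied most. cfa-miR-125b had 5.60, 3.18, 4.75 and 3.70 in DCM and 5.31, 5.69, 3.44 and 4.88 in controls, so that both groups spanned more than 2 units on the glog2 scale. DoCM5 was high together with Con1 and Con2, as the detection of its dimmer probe showed, while DoCM6, Con3 and DoCM8 were low. DCM dogs averaged 4.31 ± 1.08 and healthy dogs 4.83 ± 0.99 (SD, n = 4 each), a log2 difference of -0.52 (standard error 0.57, 95% interval -1.77 to 0.72, limma p = 0.378, adjusted p = 0.980; exact permutation p = 0.514). It was -0.87 without DoCM5 and -0.33 without DoCM8, and the other arrays left out in turn gave values from -0.997 without Con3 to -0.14 without DoCM6, none of them past the limits. With array weights it was -0.85 and with the median over features -0.09. Quantile normalization after normexp correction gave -0.13 and scaling to the 75th percentile over all names -0.23.

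mmu-miR-125a-3p, from the opposite strand of the miR-125a hairpin, followed another order. Its values were 3.85, 4.56, 3.89 and 4.31 in DCM and 4.48, 5.19, 4.75 and 4.06 in controls. Con2 was again highest, but Con3, which was low for miR-125a itself, came next, and DoCM6 was the highest of the DCM arrays. The log2 difference was -0.47 (standard error 0.32, 95% interval -1.16 to 0.22, limma p = 0.166, adjusted p = 0.956; exact permutation p = 0.171). It was -0.33 without DoCM5, -0.53 without DoCM8 and -0.28 without Con2.

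**Figure D3:**
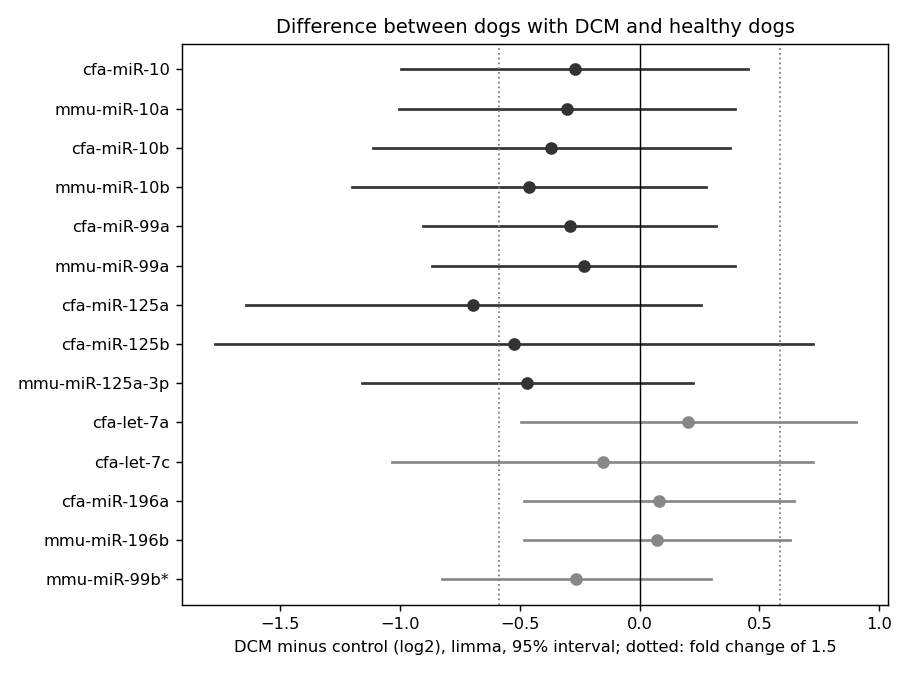
Log2 difference between the DCM and control groups (dot, limma) with its 95% interval (line) for the 9 detected names (black) and for detected names of related genes (grey); dotted lines mark a fold change of 1.5. All intervals include 0, and only the dot of cfa-miR-125a lies beyond a dotted line.

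The plot of log2 differences sets these names beside related miRNAs. let-7, whose genes lie between those of miR-99 or miR-100 and miR-125, is known for its rise during differentiation. Of its 3 canine names in these clusters 2 were detected, and 0 of 2 passed the limits, against 4.11% of all names. cfa-let-7a had a log2 difference of 0.20 (standard error 0.32, adjusted p = 0.993 in limma, exact permutation p = 0.800). This turned to -0.07 without DoCM5 and to -0.04 with array weights, and was 0.25 without DoCM8. That of cfa-let-7c was -0.15 (standard error 0.40, adjusted p = 0.993 in limma, exact permutation p = 0.800). Without DoCM5 it was -0.55, with an adjusted p of 0.681 in limma and a fold change under the limit, whereas it turned to 0.09 without DoCM6, 0.00479 without DoCM8, 0.39 with the median over features, 0.15 with scaling to the 75th percentile over all names and 0.01 without a filter. Neither let-7 name therefore had a settled direction. cfa-let-7e was not detected, with 7 of 320 measurements well above background, so that of the 5p strands from the cluster of MIR125A, MIRLET7E and MIR99B that of miR-125a was detected and those of let-7e and miR-99b were not.

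Among 8 names of the opposite strands, 2 were detected and 0 passed, against the same 4.11%. They were mmu-miR-125a-3p and mmu-miR-99b*, the latter well above background on 2 arrays only. For mmu-miR-99b* the log2 difference was -0.26 (standard error 0.26, adjusted p = 0.956 in limma, exact permutation p = 0.0857). It was -0.20 without DoCM5 and -0.20 without DoCM8. The scaling moved it from -0.79 (75th percentile over detected names) to -0.03 (quantile normalization after normexp correction). Since most arrays were not well above background for this name, these values are not measured fold changes, and no direction is read from them. Of 6 names of the other miRNAs of the HOX clusters, 2 were detected, cfa-miR-196a on 3 arrays and mmu-miR-196b on 2. Their log2 differences were 0.08 and 0.07 (adjusted p = 0.993 for both in limma, exact permutation p = 0.571 and 0.543), and 0 of 2 passed. Both differences changed sign with scaling to either 75th percentile and without a filter. With 1 array left out, that of cfa-miR-196a ran from -0.01 (without DoCM7) to 0.13 (without DoCM5). That of mmu-miR-196b ran from 0.004 (without Con3) to 0.16 (without DoCM7). Since most arrays were not well above background for either name, these values are not measured fold changes. miR-615 was not detected in any of its listings.

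**Figure D4:**
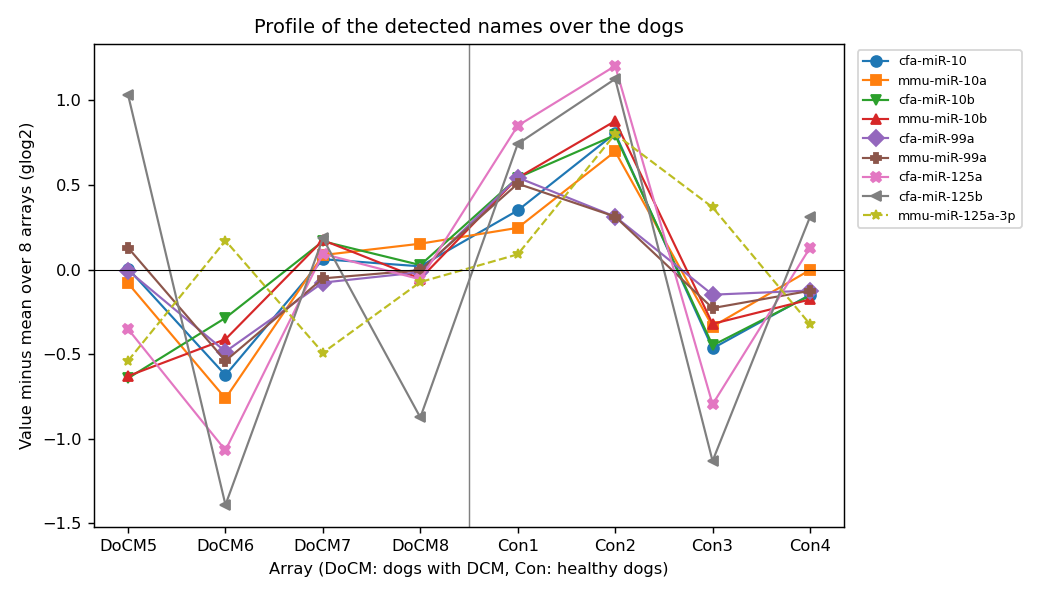
Normalized signal (glog2) minus the mean over the 8 arrays for each detected name; the vertical line separates DCM from control arrays. Con1 and Con2 are above 0 and DoCM6 and Con3 below 0 for all names of the 5p strand, miR-125b is high on DoCM5 where miR-10b is low, and mmu-miR-125a-3p (dashed) departs from the others.

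The dogs differed from each other in the same way for most names, as the profile over the dogs shows. Over the 8 names of the 5p strand, Con2 was highest in 6 and Con1 in 2, and Con2 was among the 2 highest for 8 and Con1 for 7. DoCM6 was lowest in 6 and DoCM5 in 2, and DoCM6 and Con3 were each among the 2 lowest for 7. Con1 and Con2 were thus high and Con3 low within the same group. For all 9 names the SD among the 4 healthy dogs was larger than the difference between the group means.

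**Figure D5:**
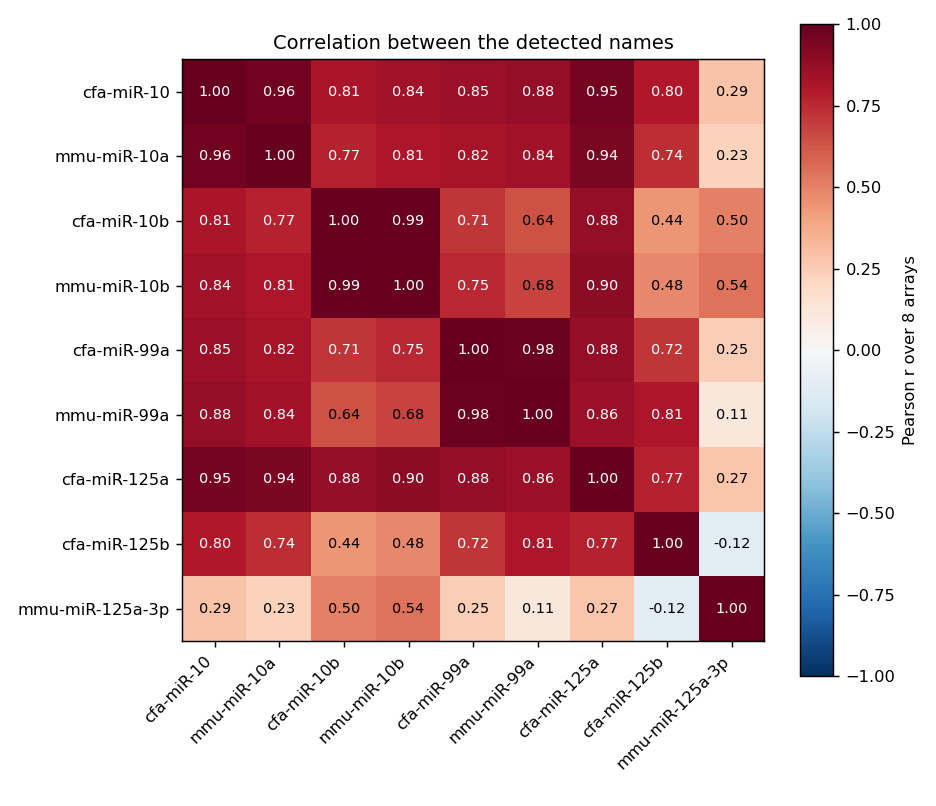
Pearson r of the normalized signal over the 8 arrays for each pair of detected names. Pairs of the 5p strand are all positive, from 0.44 to 0.99, and the row of mmu-miR-125a-3p runs from -0.12 to 0.54.

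Pearson and Spearman correlations over the 8 arrays were computed for all 36 pairs of the 9 names, with exact permutation p-values adjusted over the 36 pairs. All 28 pairs of 5p names were positive, with a median r of 0.82 (0.44 to 0.99), and 22 of them had an adjusted p under 0.05 by r. Fewer pairs did by rho: for example, cfa-miR-125a and cfa-miR-99a had an adjusted p of 0.0262 by r and 0.0786 by rho (exact permutation). When features were summarised by their median, 0 pairs had an adjusted p under 0.05 by r, and the median r over all 36 pairs was 0.30 against 0.79. By construction the median over features lies at or near the gap between a bright and a dim probe for most 5p names. These are cfa-miR-10, mmu-miR-10a, both listings of miR-10b, cfa-miR-99a and cfa-miR-125b. Among all 37950 pairs of the 276 names well above background on all 8 arrays, the median r was -0.02 and the middle range ran from -0.50 to 0.51. For deviations from the group means the median r of the 28 pairs was 0.79 (0.37 to 0.99), that is, with the difference between groups removed, and without DoCM5 it was 0.89 (0.79 to 0.99). The count of 22 depended on the arrays: it was 28 without DoCM5, 11 without DoCM6, 6 without DoCM7, 10 without Con1, 19 without DoCM8, 7 without Con2, 6 without Con3 and 12 without Con4. Fewer arrays also leave fewer pairings for the exact test. The median r over all 36 pairs stayed between 0.67 and 0.88 with each array left out. All values share the same arrays and the same normalization, and relatives may share signal on a probe, which was not tested.

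The canine and murine listings of a miRNA lay closest together. The exact permutation test gave r = 0.99 for miR-10b (adjusted p = 0.000893), 0.98 for miR-99a (adjusted p = 0.000893) and 0.96 for cfa-miR-10 with mmu-miR-10a (adjusted p = 0.00469). The listings have different probes, hybridized with the same serum RNA on the same arrays, and the order of the dogs was much the same on each. How far the probes differ in sequence was not examined. Across families, cfa-miR-10 and cfa-miR-125a, whose genes lie apart, had r = 0.95 and rho = 0.86 (exact permutation, adjusted p = 0.00625 and 0.0326), and r was 0.88 without Con2 and DoCM6.

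miR-125a and miR-125b, which are similar in sequence and come from different clusters, had r = 0.77 and rho = 0.76 (exact permutation, adjusted p = 0.0487 and 0.0735). This relation rested in part on Con2 and DoCM6, without which r was 0.54. miR-99a and miR-125b, which share 2 clusters, had r = 0.72 and rho = 0.83 in the canine listings (exact permutation, adjusted p = 0.0648 and 0.0326), and r was 0.46 without Con3 and DoCM6. With the murine listing mmu-miR-99a, cfa-miR-125b had r = 0.81 and rho = 0.83 (exact permutation, adjusted p = 0.0290 and 0.0326), and r was 0.55 without the same 2 arrays. The median r over all 20 pairs from different families was 0.81.

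Of the 28 pairs on all 8 arrays, those of cfa-miR-125b with cfa-miR-10b and mmu-miR-10b had the lowest r, 0.44 and 0.48. cfa-miR-10b and cfa-miR-125b had r = 0.44 and rho = 0.40 (exact permutation, adjusted p = 0.328 and 0.420), and r was 0.86 without DoCM5, the array on which miR-10b was lowest and miR-125b second highest, but -0.15 without Con1 and Con2. cfa-miR-10b and cfa-miR-99a had r = 0.71 and rho = 0.57 (exact permutation, adjusted p = 0.0652 and 0.209), and r was 0.84 without DoCM5 but 0.09 without Con1 and Con2, so that this pair rests on these 2 healthy dogs. mmu-miR-10b and cfa-miR-99a had r = 0.75 and rho = 0.60 (exact permutation, adjusted p = 0.04996 and 0.198), and r was 0.77 without Con1 and DoCM6. With mmu-miR-99a, cfa-miR-10b and mmu-miR-10b had r = 0.64 and 0.68 (exact permutation, adjusted p = 0.119 and 0.0936). mmu-miR-125a-3p had r = 0.27 with cfa-miR-125a, and 0 of its 8 pairs had an adjusted p under 0.05.

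The let-7 partners were set against their cluster neighbours in 4 pairs chosen after the values were seen. cfa-let-7c had r = 0.70 and rho = 0.60 with cfa-miR-125b (exact permutation, p = 0.0479 and 0.132, adjusted p = 0.192 and 0.486), and r was 0.46 without DoCM5 and DoCM6. With cfa-miR-99a it had r = 0.36, and 0.27 without the same 2 arrays. cfa-let-7a had r = 0.12 with cfa-miR-99a and 0.41 with cfa-miR-125b. These values were 0.35 and 0.06 without DoCM5, and 0.86 and 0.67 without Con2 and DoCM5. None of the 4 had an adjusted p under 0.05. On DoCM5 cfa-let-7c had 9.27 and cfa-let-7a 9.06, the highest values of both, as cfa-miR-125b was close to its highest there.

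The names most like each member were sought among 267 other names by r over the 8 arrays, as a description. For cfa-miR-10 the closest was mmu-miR-139-5p with r = 0.97, and this name had 0.92 with mmu-miR-10a. For mmu-miR-10a, cfa-miR-10b and mmu-miR-10b the closest was mmu-miR-30a, with r = 0.93, 0.80 and 0.82. cfa-miR-320 was closest to both listings of miR-99a, with 0.86 for the canine and 0.91 for the murine. For mmu-miR-125a-3p the closest were mmu-miR-3963 and mmu-miR-5100, both with 0.95, names that are not among the closest 3 of any 5p name. On the array level, mmu-miR-139-5p was highest on Con2 (4.50) and low on DoCM6 (2.80) and Con3 (2.79), the same dogs that marked miR-10 and miR-125a.

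For markers of other sources of serum miRNA, the normalized values of a list were turned back to a linear scale and summed for each array and the sum is given as log2, so that the brightest name weighs most (cfa-miR-451 for erythrocytes, the listings of miR-223 for leukocytes). All 6 erythrocyte names were detected, with 16.71 to 17.29 in DCM and 16.89 to 17.21 in controls, and 3 of the 6, cfa-miR-144, mmu-miR-144 and the opposite strand mmu-miR-144*, passed the limits as higher in DCM, against 1.83% of all names. Of 9 leukocyte names 8 were detected (12.25 to 13.31 in DCM, 12.83 to 13.27 in controls), and 1 of them, mmu-miR-142-3p, passed the limits as higher in DCM, with a log2 difference of 1.28 and no overlap of the groups (adjusted p = 0.458 in limma). The means of 3 of the 8 were lower in DCM, among them the canine and murine listings of miR-223 (-0.38 and -0.44). The leukocyte sum differed by -0.33 (exact permutation p = 0.257). All 5 platelet and endothelial names were detected (8.97 to 10.54 in DCM, 9.36 to 9.55 in controls), with the highest value on DoCM5 and 0 past the limits. Of 8 heart and muscle names 5 were detected (6.96 to 7.49 in DCM, 6.85 to 8.65 in controls), with the highest value on Con2. cfa-miR-133a, cfa-miR-208a and cfa-miR-208b were not detected, whereas cfa-miR-133b, cfa-miR-499 and mmu-miR-208a-5p were well above background on all 8 arrays, and 0 of the 5 passed the limits. All 3 liver names were detected (8.67 to 9.15 in DCM, 8.68 to 9.62 in controls), and 0 passed.

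In 45 correlations between a detected name and a marker sum, 0 had an adjusted p under 0.05 by the exact permutation test (smallest adjusted p 0.772 for r and 0.419 for rho). The values of r with the erythrocyte sum lay between -0.34 and 0.34 and those with the liver sum between -0.48 and -0.04. With the leukocyte sum they ran from -0.50 to 0.71, the highest being that of mmu-miR-125a-3p (rho = 0.86, exact permutation p = 0.0107, adjusted p = 0.419). With the platelet and endothelial sum they ran from -0.42 to 0.59, and rho was 0.79 for both listings of miR-99a (exact permutation p = 0.0279, adjusted p = 0.419). With the heart and muscle sum they lay between 0.28 and 0.66, all positive, and the 5p names ran from -0.09 to 0.76 once the 2 most distant arrays were left out. The part of these sources in the levels of miR-10, miR-99 and miR-125 was not tested further.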

How the data were processed

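Total RNA from clotted-blood serum was labelled with Cy3 and hybridized to a custom one-colour miRNA array with canine and murine names. The authors deposited the scanner output of Agilent Feature Extraction 10.7.3.1 (per the submitters' processing notes): per feature an intensity, background-subtracted and not normalized, with detection and outlier flags. A table of the same intensity values served as an alternative.

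Following the study's methods, a feature was kept when well above background in at least 2 of 4 arrays of a group (13423 features). Control and outlier-flagged features were left out, and kept features were averaged per name. These means were normalized to glog2 by the vsn model (affine calibration and arsinh, fitted by trimmed least squares at quantile 0.9 in 5 slices and 7 rounds) in an own implementation, tested on simulated data. Names with 50% or more of their kept features so detected counted as well above background there. limma 3.58.1 in R 4.3.3 compared all 8 arrays over 438 names, with Benjamini-Hochberg adjustment over all of them. Adjusted p-values of differences are from this fit unless another setting is named. Those of correlations were adjusted within each set of correlations. Permutation tests were exact and two-sided over 70 splits, where the smallest possible p is 0.0286, and over all pairings for correlations. Figures used matplotlib 3.10.9. 

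The members and lists were chosen with earlier results of these data known. Named miRNAs were all members, their cluster partners, opposite strands, other miRNAs of the HOX clusters and the closest names by r. Alternatives covered the arrays, normalization, background correction, averaging, filter, weights and slide column. The number of dogs, 4 per group, limits the precision. Gene order was taken from RefSeq, UU_Cfam_GSD_1.0.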

Additional observations from a re-analysis of the deposited data

Results flagged for a closer look

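Among 28 groups of 4 arrays examined, 2 held a value whose gap to the nearest other value, as a share of the range of the group, was above Dixon's critical value for 4 values, where chance gives about 1.4 such groups. Both were the array labelled DoCM6 in the DCM group. The 2 names were correlated over the 8 arrays (r = 0.85), so that these are not 2 separate results. The chance count treats the groups as independent, which they are not. The murine listings mmu-miR-10a and mmu-miR-99a were not flagged on DoCM6. cfa-miR-10 was 3.88 glog2 on DoCM6 against 4.51 to 4.57 on the other DCM arrays, with a gap of 0.919 of the range. cfa-miR-99a was 5.13 glog2 on DoCM6 against 5.54 to 5.61, with a gap of 0.851. Without DoCM6 neither passed the limits.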

How the results depend on the processing

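Over 19 other settings, 169 of 171 log2 differences of the 9 names kept their sign, and 2 passed the limits. cfa-miR-10 changed to 0.20 with the median over features and mmu-miR-99a to 0.03 with the 75th percentile over all names. Of the 9 names, 0 to 1 passed with each array left out in turn (cfa-miR-125a without Con3) and 1 with the median over features (cfa-miR-99a, log2 difference -0.77). For cfa-miR-99a, cfa-miR-10, mmu-miR-10a, both miR-10b listings and cfa-miR-125b, that median lies by construction at or near the gap between 2 unequally bright probes. With it 0 of the 36 pairs had an adjusted p under 0.05, against 22; the count was 13 with quantile normalization, 7 with quantile normalization after normexp correction of the median signal, and 6 to 28 with each array left out, where fewer arrays also leave fewer pairings. Over all names 18 passed the limits, with 12 to 29 as each array was left out (29 without DoCM6, 12 without DoCM8), 3 with that normexp and quantile setting, against 15 with quantile normalization alone, 34 with array weights, and 52 without a filter, where 1224 names were tested (4.25% against 4.11%). Scaling to the 75th percentile of detected names moved the median of all names to -0.21, with 70.8% of all names lower in DCM and 3 higher and 21 lower calls against 8 and 10, and that of the 9 names to -0.39; with the 75th percentile over all names the median of the 9 was -0.08. Under this last scaling the differences of the 9 names ran from -0.43 (cfa-miR-125a) to 0.03 (mmu-miR-99a). With quantile normalization after normexp correction they ran from -0.27 (mmu-miR-10b) to -0.06 (cfa-miR-10). That setting adds an offset of 50 to the signals before the log2, which narrows differences and their standard errors alike. The standard error of cfa-miR-10 was 0.09 there, against 0.33 with the vsn model. Using the brightest probe of each name alone, chosen after seeing the data, left 21 pairs. How far the offset or other steps caused these shifts was not tested. No paired analysis was possible because no replicate number occurs in both groups. The slide column is a position and pairs no dogs; with it as a block, 0 of the 9 passed. The number of dogs limits every value, and dim features limit those of cfa-miR-10, cfa-miR-125b and mmu-miR-99a.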
